A study of Mus musculus with 3 samples.

Results

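Ureteric trunk and collecting duct cells line the stalks of the branching tree that drains the kidney. The ureteric bud grows out of the nephric duct into the metanephric mesenchyme and branches there. Its tips carry the GDNF receptor RET and express Wnt11, and they hold the dividing progenitors of the tree. Cells left behind the tips form the trunk, which becomes the collecting ducts and, nearer to the exit, the renal pelvis and ureter. The trunk secretes WNT9B, which starts nephron formation in the neighbouring mesenchyme, and WNT7B, which shapes collecting duct growth. Nephron tubules arise from cap mesenchyme, and only their distal end joins the ureteric tree.

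The trunk cells were chosen by detected genes in E14.5 (embryonic day) wild-type mouse kidney of mixed strain, mostly CD-1 and 129. A trunk cell had 3 or more of the 6 ureteric markers Calb1, Gata3, Epcam, Ehf, Cldn3 and Krt23. It had neither of the tip genes Ret and Wnt11, and fewer than 3 of the 7 distal nephron markers Sostdc1, Tmem52b, Slc12a1, S100g, Mal, Npb and Tfap2b. The rule found 175 of 5110 cells with 500 or more detected genes. Those were 78 of 1964 cells in the Drop-seq library, a share of 3.97% (exact binomial 95% interval 3.15 to 4.93). They were 77 of 2252 cells in the 10X library, or 3.42% (2.71 to 4.26), and 20 of 894 cells in the Fluidigm library, or 2.24% (1.37 to 3.43). The intervals cover counting error only.

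Each platform gave 1 library, so the platforms were not tested against each other. Drop-seq and 10X count molecules by unique identifiers (UMIs) in droplets. The Fluidigm C1 chip captures each cell in a chamber, and its values are reads, where 20 reads counted as detection. Total counts over the kept cells were 17751487 in Drop-seq, 17952211 in 10X and 173799153 in Fluidigm. No cell barcode or name was shared between libraries. The Fluidigm names are file names and could not match a barcode. This therefore does not show that the libraries came from separate animals. For comparison, 205 cells were ureteric tip cells, which met the ureteric rule with Ret or Wnt11 detected. A further 266 cells were distal nephron cells, with 3 or more distal markers. Another 390 early nephron and 163 proximal tubule cells made up the other nephron epithelium. They had fewer than 3 ureteric markers and 3 or more markers of their own class. Where 3 values follow each other below, they stand for Drop-seq, 10X and Fluidigm in that order, and levels are CPM, the counts of a gene in the cells of a class scaled to a common total.

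The genes of the rule are given as a description, with no test, because they chose the cells. Calb1, the calcium-binding protein calbindin D28K, stood at 1182, 1211 and 3099 CPM in trunk cells, against 1772, 2574 and 2778 CPM in tip cells. In the distal nephron Calb1 reached 386, 451 and 555 CPM, and in other nephron epithelium 5.04, 5.77 and 7.56 CPM. Calb1 was detected in 60 of 78, 48 of 77 and 17 of 20 trunk cells, against 90 of 90, 83 of 83 and 31 of 32 tip cells. Its gene lies on chromosome 4 at 15881264 to 15908064 of mm10 (GENCODE vM21 annotation). Gata3, a transcription factor of the nephric duct lineage, stood at 391, 583 and 296 CPM in trunk cells, against 286, 398 and 277 CPM in tip cells. Epcam, a general epithelial adhesion protein, was at 1383, 865 and 428 CPM in trunk cells, against 1263, 945 and 527 CPM in tip cells. Ehf, an epithelial ETS factor, stood at 285, 93.2 and 231 CPM in trunk cells. Cldn3, a tight junction claudin, stood at 426, 485 and 209 CPM in them.

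Krt23, an acidic keratin, was the ureteric marker detected in the fewest trunk cells. It stood at 49.7, 39.0 and 18.4 CPM in trunk cells, against 196, 191 and 152 CPM in tip cells, and the counting intervals of the trunk values ended at 74.6, 61.6 and 23.4 CPM. Krt23 was detected in 14 of 78, 14 of 77 and 1 of 20 trunk cells. The trunk cells therefore rested mainly on the other 5 markers. Among the distal markers, Mal, a lipid raft protein of apical transport, was the one that trunk cells carried most, at 166, 204 and 234 CPM, against 199, 265 and 249 CPM in the distal nephron. Slc12a1, the salt cotransporter of the thick ascending limb, had no count in trunk cells, against 123, 358 and 28.8 CPM in the distal nephron. Ret and Wnt11 were at 0 in trunk cells of both droplet libraries by construction. Fluidigm trunk cells kept 21.7 CPM of Ret and 6.05 CPM of Wnt11, from cells under the limit of 20 reads, against 268 and 153 CPM in tip cells.

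**Figure D1:**
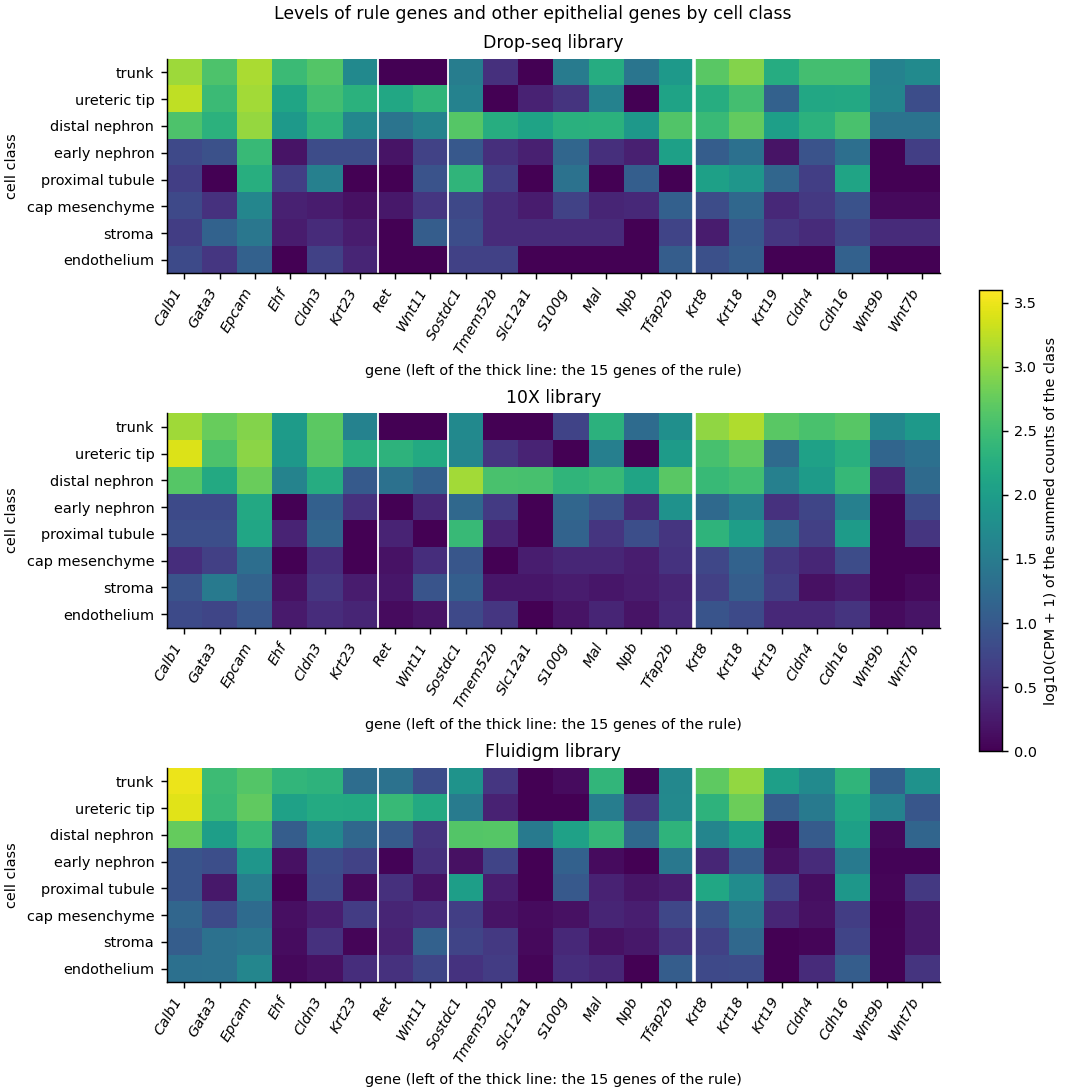
Level of the 15 genes of the rule (left of the thick line) and of 7 other epithelial genes (right of it) in 8 cell classes, as log10 of CPM + 1 of each class's summed counts, with 1 panel per library and trunk cells in the top row. The ureteric markers and the keratins Krt8 and Krt18 are bright in trunk, tip and part of the distal nephron row and dark in mesenchyme, stroma and endothelium.

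The edge of the rule coincided with a step in a keratin. Trunk cells with exactly 3 of them numbered 17, 22 and 9, and their Krt18, a simple-epithelium keratin that the rule did not use, was at 745, 1403 and 852 CPM. Cells just outside, with 2 ureteric markers and otherwise within the rule, numbered 55, 59 and 18, and had 41.6, 131 and 90.0 CPM of Krt18. On the distal side, 43, 34 and 3 cells had 3 or more ureteric and also 3 or more distal markers and were classed as distal nephron. They had 1066, 696 and 126 CPM of Krt18, above the cells with 2 ureteric markers in each library.

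The edge towards the tip depended on depth. Trunk cells had median totals of 6270, 6467 and 166332 counts per cell, against 8272.5, 9785 and 205837 in tip cells. After each cell was thinned to 4000 UMIs or 50000 reads, 22 of 90, 22 of 70 and 9 of 32 tip cells that were deep enough met the trunk rule. Of the trunk cells, 64 of 77, 46 of 60 and 6 of 19 still met it. At a fixed depth, between 24.4% and 31.4% of the tip cells in a library thus counted as trunk. Non-epithelial classes here were cap mesenchyme, stroma, endothelium, immune and erythroid cells. Trunk cells with 3 or more markers of 1 of them numbered 6, 8 and 6, most of them with stroma or cap mesenchyme markers. Counted apart, 5, 6 and 2 trunk cells had 3 or more early nephron markers. In the 10X library 1 trunk cell had 3 or more proximal tubule markers, and 8 had over 20% mitochondrial counts.

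The label of collecting duct was then set against the genes of mature duct cells. Aqp2, the vasopressin-regulated water channel of principal cells, had 1 count in all trunk cells together. Foxi1, the master regulator of intercalated cells, had 1 count in Drop-seq, 1 in 10X and none in Fluidigm. Other duct genes were well above that: Scnn1b, a subunit of the epithelial sodium channel, reached 49.7, 104 and 105 CPM, and Tfcp2l1, a transcription factor of distal tubule and collecting duct, 117, 251 and 288 CPM. Elf5, an ETS factor of principal cell lineage, was at 45.4, 52.0 and 3.85 CPM. The trunk cells thus carried part of the duct gene set, without the water channel that defines mature principal cells, at the depth of these libraries. Genes of this set were also present in the distal nephron, as given below.

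The comparison with other nephron epithelium showed an epithelium of keratins, tight junctions and sodium channel subunits in the trunk. Higher in trunk cells were simple keratins, claudins 4, 7 and 8, sodium channel subunits, the signals Wnt7b and Wnt9b and the transcription factors Gata2, Klf5 and Tfcp2l1. Lower were genes of proximal and other nephron segments, the nephron patterning factors Irx1 and Sall1, and several cell cycle genes. Trunk cells had to carry 3 or more ureteric markers and the other class fewer than 3. Genes that go with those markers are thus no independent evidence of a difference. Each class was summed within each library, the sums entered edgeR's quasi-likelihood test, and the Benjamini-Hochberg adjustment ran over 12686 genes, leaving out every marker of a class. A gene is called where the adjusted p is under 0.05. Of all genes, 882 were called, 491 higher and 391 lower in trunk cells, which is 6.95% of the genes tested (3.87% higher, 3.08% lower). Leaving out the Drop-seq library gave 227 calls, leaving out 10X gave 277 and leaving out Fluidigm gave 1364. The p-values measure the spread of class sums over libraries that differ in platform, and the labels do not say whether these came from separate animals.

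Of 40 tested genes of epithelial junctions and keratins, 19 were higher and 1 was lower in trunk cells, with a median log2 difference of 1.99, against -0.05 over all genes. Krt18 stood at 860, 1504 and 1052 CPM in trunk cells, against 27.5, 60.1 and 29.1 CPM in other nephron epithelium, a log2 difference of 4.80 ± 0.51 (SE; edgeR adjusted p = 1.88e-05). Its partner Krt8 was at 471, 1021 and 513 CPM, against 22.9, 92.7 and 58.7 CPM (3.39 ± 0.48, edgeR adjusted p = 0.000223). The 2 keratins lie side by side on chromosome 15, Krt8 at 101996698 to 102004482 and Krt18 at 102028180 to 102032027 (mm10), and form the filaments of simple epithelia as a pair. Krt18 was detected in 92.3%, 92.2% and 85.0% of trunk cells, against 4.8%, 6.3% and 3.5% of stroma cells, which should lack it.

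Claudins seal the space between epithelial cells and set which ions pass. Cldn4 stood at 331, 364 and 51.1 CPM in trunk cells, against 6.87, 4.32 and 1.21 CPM in other nephron epithelium (log2 difference 5.69 ± 0.48, edgeR adjusted p = 3.94e-08). Cldn8, which works with Cldn4 in the collecting duct, was at 283, 457 and 169 CPM, against 0.916, 5.29 and 0.0504 CPM (edgeR adjusted p = 2.18e-08). In all 3 libraries both claudins were far apart between the classes, with no overlap of any trunk value with any nephron value. Cdh16, kidney-specific cadherin, was shared more widely, at 335, 457 and 229 CPM in trunk cells, against 33.0, 57.7 and 49.5 CPM (2.68 ± 0.42, edgeR adjusted p = 0.000378). The 1 junction gene that fell was Cldn10, a claudin of the nephron, with 0, 10.8 and 0.825 CPM in trunk cells, against 20.2, 43.2 and 39.7 CPM (edgeR adjusted p = 0.0158).

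Genes of collecting duct transport and maturation were higher in trunk cells for 13 of 26 tested and lower for none, with a median log2 difference of 2.31 when genes without counts in 1 class are set to a floor of 3 counts per library. Scnn1b had 49.7, 104 and 105 CPM in trunk cells, against 0.458, 0 and 0.101 CPM in other nephron epithelium (edgeR adjusted p = 2e-05). Scnn1g, its sister subunit, had 36.7, 34.7 and 12.6 CPM, against 0, 0 and 0.101 CPM, which is at least 26.7-fold higher in Drop-seq and at least 24.1-fold higher in 10X. Both subunits belong to the channel through which collecting duct cells take up sodium. Fxyd4, a regulator of the sodium pump in collecting duct, had 115, 646 and 170 CPM, against 0.916, 4.32 and 0 CPM (edgeR adjusted p = 0.00855). Avpr2, the vasopressin receptor that governs water uptake, was low throughout at 4.32, 13.0 and 6.32 CPM and had no count in the other nephron epithelium.

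Urothelial and ureter genes were higher in trunk cells for 9 of 11 tested of 20 listed, and lower for none, with a floored median log2 difference of 4.76. Of the 11 tested, 4 had no count in other nephron epithelium and so could not have come out lower. Genes with few counts in every class were not tested. The lack of lower genes is thus partly set by which genes could be tested. Upk3a, a plaque protein of the urothelium that lines pelvis and ureter, had 41.1, 111 and 33.5 CPM in trunk cells, against 0, 0 and 0.0504 CPM. That is at least 29.9-fold higher in Drop-seq and at least 76.7-fold higher in 10X. Foxa1, a forkhead factor of urothelium, was at 15.1, 39.0 and 7.42 CPM in trunk cells and had no count in other nephron epithelium. These genes came from a minority of the trunk cells, described further on.

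Among ureteric transcription factors, 7 of 28 were higher and 3 were lower in trunk cells. Gata2, a partner of Gata3 in the ureteric lineage, had 90.8, 95.3 and 35.2 CPM, against 7.33, 1.44 and 1.11 CPM (edgeR adjusted p = 8.96e-05). Tfcp2l1 differed by 2.61 ± 0.40 on the log2 scale (edgeR adjusted p = 0.000198), with nephron levels of 11.5, 52.4 and 40.7 CPM. Hoxb7, whose promoter is widely used to mark the ureteric tree, stood at 320, 254 and 153 CPM, against 133, 120 and 83.8 CPM (0.96 ± 0.21, edgeR adjusted p = 0.00351). Pax2, a factor that ureteric and nephron epithelium both need, stood at 238, 195 and 4.40 CPM in trunk cells, against 251, 108 and 6.15 CPM, and was not called (edgeR adjusted p = 0.909). Irx1, a patterning factor of the middle nephron, had no count in trunk cells of any library, against 24.3, 63.9 and 5.75 CPM. Sall1, a zinc finger factor of nephron progenitors, was at 13.0, 10.8 and 18.97 CPM, against 88.9, 84.1 and 122 CPM (-3.08 ± 0.68, edgeR adjusted p = 0.0079).

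Signals of the trunk to its surroundings were among the called genes, with 5 of 30 listed signals and receptors higher and 4 lower. Wnt7b stood at 51.9, 86.7 and 67.3 CPM in trunk cells, against 3.21, 4.32 and 1.26 CPM in other nephron epithelium (log2 difference 4.59 ± 0.73, edgeR adjusted p = 0.000201). Wnt9b stood at 38.9, 47.7 and 11.8 CPM, against 0, 0 and 0.101 CPM, at least 28.3-fold higher in Drop-seq and at least 33.1-fold higher in 10X. Shh, which the trunk and ureter send to the surrounding mesenchyme, was at 10.8, 4.33 and 7.70 CPM in trunk cells and had no count in other nephron epithelium. Lgr4, a receptor that boosts WNT signals, was lower in trunk cells at 30.3, 26.0 and 28.3 CPM, against 87.5, 133 and 124 CPM (-2.15 ± 0.36, edgeR adjusted p = 0.000219). Notch1 was lower as well, at 49.7, 47.7 and 26.1 CPM, against 81.1, 87.0 and 74.4 CPM (-1.18 ± 0.34, edgeR adjusted p = 0.0322).

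Genes of the tip and of RET response were higher in trunk cells than in other nephron epithelium for 6 of 23 and lower for 1. Gfra1, the GDNF co-receptor, stood at 169, 56.3 and 28.0 CPM in trunk cells, against 23.8, 6.25 and 8.17 CPM (log2 difference 2.28 ± 0.53, edgeR adjusted p = 0.00876). Kitl, the ligand of the KIT receptor, was at 177, 41.2 and 74.2 CPM, against 17.4, 4.32 and 7.51 CPM (3.22 ± 0.34, edgeR adjusted p = 6.01e-07). Both were above the nephron value in all 3 libraries.

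Among retinoid genes, 4 of 18 were higher and 1 was lower. Aldh1a3, an enzyme that makes retinoic acid, stood at 192, 132 and 82.5 CPM in trunk cells, against 7.79, 2.40 and 0.302 CPM (log2 difference 5.95 ± 0.59, edgeR adjusted p = 4.07e-07). Its relative Aldh1a2 was lower, at 43.2, 43.3 and 113 CPM, against 185, 138 and 252 CPM (-1.70 ± 0.46, edgeR adjusted p = 0.03). The 2 enzymes of retinoic acid synthesis thus differed in opposite directions. Of 30 basement membrane and integrin genes, 2 were higher and 2 lower. Lama5, the laminin chain of mature kidney basement membrane, was at 58.4, 91.0 and 46.2 CPM in trunk cells, against 11.5, 9.61 and 9.43 CPM (2.52 ± 0.40, edgeR adjusted p = 0.000124).

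Nephron segment genes were lower for 12 of 28 tested and higher for 1, Wfdc2, with a floored median log2 difference of -2.06. The other nephron epithelium was picked by proximal and early nephron markers, so these genes are no independent evidence of a difference. Fxyd2, the gamma subunit of the sodium pump in nephron tubules, stood at 10.8, 21.7 and 17.9 CPM in trunk cells, against 210, 681 and 1621 CPM (-5.85 ± 0.89, edgeR adjusted p = 0.000674). Amn, a part of the proximal endocytic receptor, had 0, 2.17 and 0 CPM in trunk cells, against 51.3, 106 and 33.3 CPM. Both were below the nephron value in all 3 libraries. Beside this, the summed proximal markers stood at 6.48, 49.8 and 25.3 CPM in trunk cells, and the summed early nephron markers at 292, 319 and 161 CPM.

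Cell cycle genes were lower for 7 of 38 tested and higher for 1, with a median log2 difference of -0.55. Ccnd1, a G1 cyclin, stood at 687, 282 and 489 CPM in trunk cells, against 2318, 586 and 623 CPM (-1.14 ± 0.20, edgeR adjusted p = 0.000512). Top2a, which untangles DNA in dividing cells, was at 303, 180 and 548 CPM, against 606, 332 and 687 CPM (-0.79 ± 0.24, edgeR adjusted p = 0.0438). The exception Ccnd2 was higher, at 370, 347 and 351 CPM, against 214, 112 and 175 CPM (0.99 ± 0.22, edgeR adjusted p = 0.00503). Of 25 dissociation stress genes, 2 were higher, among them the small heat shock protein Hspb1 at 143, 221 and 97.0 CPM, against 3.67, 5.77 and 6.55 CPM, and 1 was lower. The stress list had 23 of 25 positive log2 differences and a median of 0.98, against -0.05 over all genes, and its part in the other differences was not tested.

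Outside the lists, the called genes with the largest higher differences included Wfdc15b, a secreted protease inhibitor family member, and Rprm, a p53 target linked to arrest of the cell cycle. Wfdc15b stood at 296, 316 and 317 CPM in trunk cells, against 5.04, 0.961 and 1.56 CPM (edgeR adjusted p = 6.11e-12). Rprm stood at 610, 566 and 132 CPM, against 3.67, 6.25 and 0.101 CPM (edgeR adjusted p = 5.35e-06). Both were also present in the tip, Wfdc15b at 203, 265 and 321 CPM and Rprm at 953, 1311 and 225 CPM, so they were shared with the tip. Foxq1, a forkhead factor, was at least 89.6-fold higher in Drop-seq and at least 151-fold higher in Fluidigm, where the other nephron epithelium had no count.

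**Figure D2:**
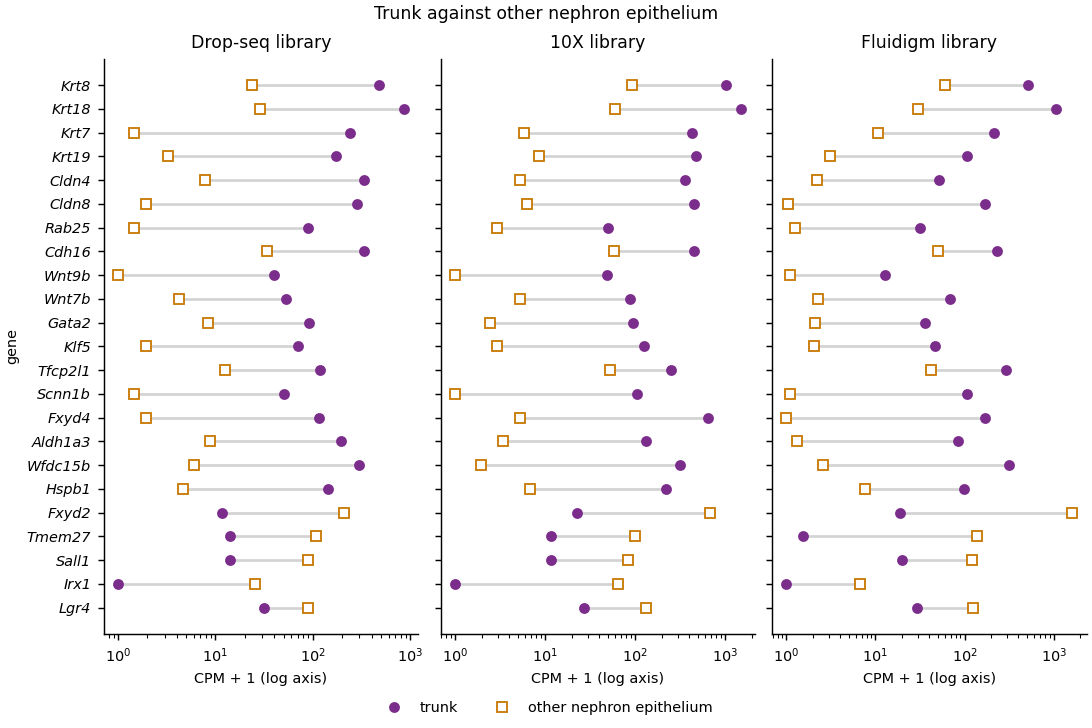
CPM + 1 on a log axis of 23 genes in trunk cells (filled circles) and in other nephron epithelium (open squares), with 1 panel per library and a grey line joining the 2 classes. Keratins, claudins, WNT ligands, sodium channel and ureteric factor genes lie far to the right in trunk cells, and Fxyd2, Tmem27, Sall1, Irx1 and Lgr4 lie to the left.

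Against the distal nephron, the nearest neighbour of the collecting duct, the differences were fewer and mostly on the lower side. The nephron segment genes Irx1, Fxyd2, Ly6a and Cldn19 and the metallothionein Mt1 were lower in trunk cells. The higher genes included the retinoid gene Dhrs3, the growth factor binding protein Igfbp2 and the ephrin Efnb2. The retinoid gene Cyp26b1 was also called higher, but was not higher in 10X. Of 12686 genes, 122 were called, 33 higher and 89 lower, or 0.962% (0.26% higher, 0.702% lower). Leaving out Drop-seq gave 43 calls and leaving out 10X gave 4, while without Fluidigm there were 144. Of the 122, 32 were again called without Drop-seq, 2 without 10X and 57 without Fluidigm. The 4 calls without 10X were Fxyd2, Hoxa9, Hba-a1 and Hba-a2, named after their values were seen, and the haemoglobin pair are near-identical copies whose reads cannot be assigned with certainty. Summed haemoglobin counts in Drop-seq were 1364 CPM in trunk cells and 9026 CPM in the distal nephron, and the part of free red cell RNA in other calls was not tested.

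Of 28 nephron segment genes, 4 were lower in trunk cells and none was higher, with a floored median log2 difference of -1.62, against -0.04 over all genes. The rule itself parted trunk and distal cells by the number of distal markers. Genes of the distal nephron are thus no independent evidence of a difference. Irx1 had no count in trunk cells, against 30.7, 128 and 1.53 CPM in the distal nephron, which is at least 4.73-fold, 19.8-fold and 1.86-fold lower. Fxyd2 stood at 10.8, 21.7 and 17.9 CPM in trunk cells, against 122, 638 and 447 CPM (-5.01 ± 0.89, edgeR adjusted p = 0.0169). Ly6a, a surface protein of stem and tubule cells with close relatives in its gene family, was at 41.1, 115 and 148 CPM, against 509, 1509 and 1411 CPM (-3.57 ± 0.53, edgeR adjusted p = 0.0045). In each of these genes the trunk value was below the distal value in all 3 libraries. Cldn19, a claudin of the thick ascending limb, was at 8.65, 2.17 and 0 CPM, against 28.5, 81.3 and 39.9 CPM (edgeR adjusted p = 0.0453).

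Outside the lists, Sall3, a relative of Sall1, stood at 2.16, 4.33 and 2.199 CPM in trunk cells, against 25.8, 86.0 and 106 CPM (edgeR adjusted p = 0.00391). Mt1, a zinc-binding metallothionein, was at 25.9, 43.3 and 29.7 CPM, against 113, 792 and 369 CPM (-3.90 ± 0.79, edgeR adjusted p = 0.026). Fabp3, a fatty acid carrier, was at 6.48, 8.67 and 3.30 CPM, against 35.1, 130 and 38.2 CPM (edgeR adjusted p = 0.00956). In a set chosen after the values were seen, of 81 tested subunits of oxidative phosphorylation, 17 were lower in trunk cells and none was higher, and 2 of 81 had a positive log2 difference. Their median log2 difference was -0.38. An example is Atp5b, a subunit of ATP synthase, at 925, 1140 and 970 CPM in trunk cells, against 1365, 1823 and 1228 CPM in the distal nephron. The median share of mitochondrial counts per cell was 2.92% and 5.83% in trunk cells, against 2.64% and 5.76% in distal nephron cells of Drop-seq and 10X.

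On the higher side, Dhrs3, a retinal reductase, stood at 56.2, 167 and 117 CPM in trunk cells, against 37.3, 22.4 and 38.9 CPM (1.54 ± 0.35, edgeR adjusted p = 0.0251). Cyp26b1, which degrades retinoic acid and was named beyond the fixed rule because it makes up 1 of only 2 retinoid calls, was at 19.5, 0 and 31.1 CPM, against 3.29, 2.36 and 0.192 CPM. No other member of the 18 retinoid genes was called. Igfbp2 was at 393, 306 and 70.6 CPM, against 115, 70.7 and 28.0 CPM (1.66 ± 0.34, edgeR adjusted p = 0.0193). Ptgr1, a prostaglandin reductase, was at 147, 150 and 109 CPM, against 78.4, 17.7 and 18.0 CPM (1.97 ± 0.34, edgeR adjusted p = 0.00391). Efnb2, an ephrin ligand, was at 132, 60.7 and 95.9 CPM, against 65.2, 20.04 and 8.05 CPM (1.79 ± 0.40, edgeR adjusted p = 0.0221). In Drop-seq the gaps of these genes were smaller than in the other libraries for Dhrs3, Ptgr1 and Efnb2.

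No gene of the junction list was called against the distal nephron, although 31 of 40 had a positive log2 difference. Krt18 stood at 860, 1504 and 1052 CPM in trunk cells, against 551, 318 and 110 CPM (1.73 ± 0.45, edgeR adjusted p = 0.0831). None of 26 tested collecting duct genes was called either, with 15 of 26 positive and a median log2 difference of 0.23. The duct list summed to 852, 1688 and 876 CPM in trunk cells, against 988, 1044 and 311 CPM in the distal nephron. Tfcp2l1 differed by -0.14 ± 0.37 (edgeR adjusted p = 0.933). The distal class holds the 43, 34 and 3 cells that also carry 3 or more ureteric markers. In an alternative chosen after the data were seen, without those cells, 409 genes were called, 221 higher and 188 lower, and 114 of the 122 were among them. Krt18 then differed by 3.42 ± 0.27 (edgeR adjusted p = 2.25e-09), Cldn4 by 3.32 ± 0.43 (edgeR adjusted p = 2.21e-05) and Gata2 by 4.74 ± 0.78 (edgeR adjusted p = 0.000438). What the doubly marked cells are was not tested.

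**Figure D3:**
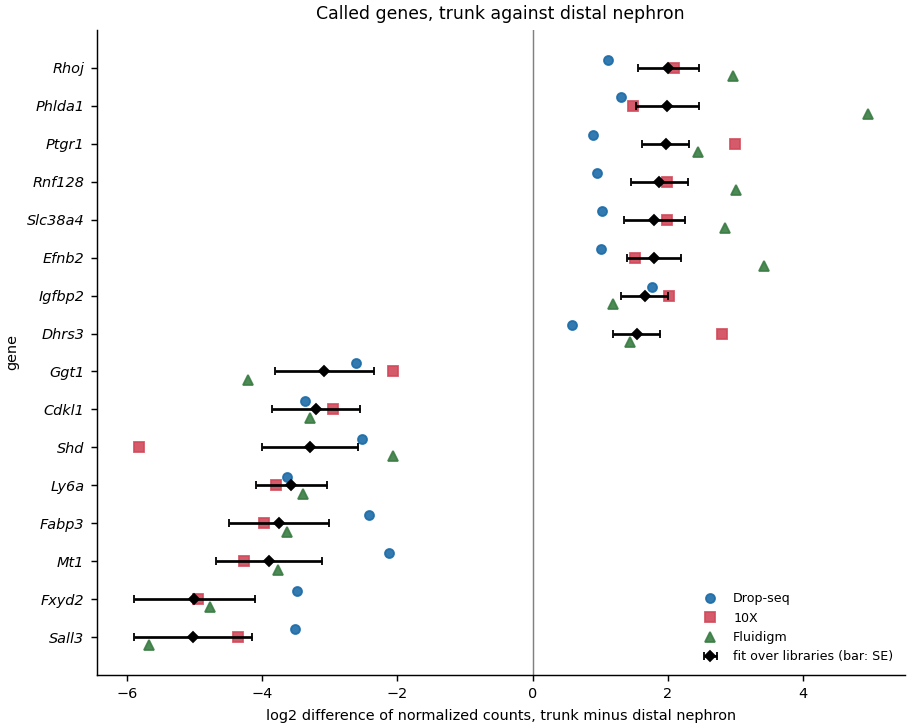
Log2 difference, trunk minus distal nephron, for 16 called genes named by rule that had counts in every class sum, with 1 symbol per library and the fitted value with its standard error in black. Fxyd2, Sall3, Mt1, Fabp3 and Ly6a lie left of 0 in all 3 libraries, and Igfbp2, Ptgr1, Efnb2 and Dhrs3 lie right of it.

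Against the ureteric tip, the other end of the same epithelium, RET response genes were lower in trunk cells. The rule itself parted trunk and tip cells by detected Ret or Wnt11, so RET response genes are no independent evidence of a difference. Etv4, Etv5, Dusp6 and Hs3st3b1 all fell, while H19, Id2, Ptgr1 and Pdzk1ip1 rose. Of 12686 genes, 49 were called, 28 higher and 21 lower, or 0.386% (0.221% higher, 0.166% lower). Leaving out Drop-seq gave 5 calls and leaving out 10X gave 8, of which 3 and 7 were among the 49. Without Fluidigm there were 300 calls, with 28 of the 49 among them. All 49 kept their direction without Drop-seq, as did the 48 and 44 that could be fitted without 10X and without Fluidigm. The lower depth per cell of the trunk, given above, moves with this comparison. With thinned cells, which left the droplet libraries only, 16 genes were called, all of them higher, 4 of the 49 were among them, and 39 of the 40 that could be fitted had the same direction. Without Drop-seq, too, no gene was called lower (edgeR, 1291 genes at an unadjusted p under 0.05 in either direction).

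Of 23 tested tip and RET response genes, 4 were lower in trunk cells and none was higher. Their median log2 difference was -1.29, against -0.04 over all genes, and 2 of 23 were positive. Etv5 stood at 77.8, 32.5 and 50.6 CPM in trunk cells, against 170, 158 and 209 CPM in tip cells (-1.90 ± 0.34, edgeR adjusted p = 0.008). Its relative Etv4 stood at 71.3, 47.7 and 27.8 CPM, against 224, 263 and 55.6 CPM (-1.70 ± 0.33, edgeR adjusted p = 0.0146). These ETS factors carry the RET signal to the genes of branching. Dusp6, a brake on ERK signalling that the same signal switches on, was at 102, 36.8 and 37.9 CPM, against 224, 130 and 106 CPM (-1.51 ± 0.28, edgeR adjusted p = 0.011). Hs3st3b1, a heparan sulfate sulfotransferase, was at 30.3, 10.8 and 10.7 CPM, against 157, 39.4 and 70.5 CPM (-2.47 ± 0.39, edgeR adjusted p = 0.00261). For all 4 genes the trunk value was below the tip value in every library. After thinning none of the 4 was called, with log2 differences of -1.21 for Etv4, -1.32 for Etv5, -0.998 for Dusp6 and -2.26 for Hs3st3b1 and edgeR adjusted p of 0.479, 0.416, 0.605 and 0.375. Gfra1 pointed the same way at 169, 56.3 and 28.0 CPM, against 291, 165 and 50.6 CPM, but was not called (-1.13 ± 0.50, edgeR adjusted p = 0.314).

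Other genes lower in trunk cells were Kdm2b, a histone demethylase, and Gchfr, which regulates tetrahydrobiopterin synthesis. Kdm2b stood at 60.5, 69.3 and 35.5 CPM, against 118, 165 and 91.4 CPM (-1.30 ± 0.25, edgeR adjusted p = 0.0146). Gchfr stood at 8.65, 4.33 and 10.7 CPM, against 51.1, 47.1 and 83.1 CPM (edgeR adjusted p = 0.0268). The called histone gene Hist1h4i has near-identical copies, so its reads may be shared with them. No gene of the 38 cell cycle genes was called by edgeR, with 6 of 38 positive and a median log2 difference of -0.45. Their summed level was 6428, 3788 and 7759 CPM in trunk cells, against 8454, 6493 and 7544 CPM in tip cells, so Fluidigm did not share the lower sum of the droplet libraries.

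On the higher side, H19 and Tmem213 shared the lowest adjusted p. H19, an imprinted non-coding RNA, lies on chromosome 7 at 142575529 to 142578143 (mm10), next to the growth factor gene Igf2 at 142650766 to 142666816. H19 stood at 1398, 1586 and 756 CPM in trunk cells, against 510, 472 and 396 CPM in tip cells (1.32 ± 0.18, edgeR adjusted p = 0.000655). Igf2, named after its values were seen, was at 1007, 137 and 597 CPM, against 434, 36.9 and 415 CPM (0.99 ± 0.22, edgeR adjusted p = 0.0318). Stroma cells had as much H19 as trunk cells, with 1382, 1261 and 912 CPM. The 9 stroma markers summed to 201, 199 and 285 CPM in trunk cells, against 68.1, 73.8 and 812 CPM in tip cells and 2180, 2306 and 3214 CPM in stroma. The cell names of the Fluidigm table fall into 2 groups, HT and E14, which the labels do not explain. H19 stood at 851 CPM in trunk and 497 CPM in tip cells of HT names, and at 615 CPM in trunk and 246 CPM in tip cells of E14 names. Etv5 stood at 81.2 CPM in trunk and 170 CPM in tip cells of HT names, and at 5.45 CPM in trunk and 268 CPM in tip cells of E14 names. Both differences thus had 1 direction in both name groups, which held 13 and 7 trunk cells and 23 and 9 tip cells. Krt8, Krt18 and Upk3a were also higher in trunk than in tip cells of both groups. The direction differed between the groups for Cldn7, which was not called, and for the rule gene Calb1. An alternative left out cells with 3 or more markers of a non-epithelial class or over 20% mitochondrial counts. The H19 difference was then 1.52 ± 0.20 (edgeR adjusted p = 0.000155).

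Id2, an inhibitor of differentiation factors, stood at 754, 390 and 456 CPM in trunk cells, against 292, 109 and 227 CPM in tip cells (1.32 ± 0.26, edgeR adjusted p = 0.0205). Pdzk1ip1, a small membrane protein of transporting epithelia, was at 253, 527 and 347 CPM, against 41.4, 44.5 and 44.1 CPM (3.03 ± 0.53, edgeR adjusted p = 0.0146). Atp1b1, the beta subunit of the sodium pump, was at 259, 256 and 51.1 CPM, against 79.1, 89.1 and 17.5 CPM (1.52 ± 0.28, edgeR adjusted p = 0.0146). The pump subunit and Pdzk1ip1 were higher in the trunk in every library. Atp1b1 was also lower in trunk cells than in the distal nephron, where it had 801, 1218 and 147 CPM. Rhcg, the ammonia channel of the collecting duct, had 36.7, 45.5 and 7.15 CPM in trunk cells, against 1.22, 1.27 and 0 CPM in tip cells (edgeR adjusted p = 0.0174). It was the 1 call among 26 tested collecting duct genes, of which 22 had a positive log2 difference. Their median was 0.73 with genes lacking counts in 1 class set to the floor. Against the distal nephron, Rhcg had a log2 difference of -0.006 and was not called.

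Several genes that textbooks place in the trunk did not pass the threshold against the tip. Wnt7b stood at 51.9, 86.7 and 67.3 CPM in trunk cells, against 6.08, 20.4 and 8.10 CPM, higher in each library but with an edgeR adjusted p of 0.0837 (2.57 ± 0.67). Wnt9b differed in direction between libraries, with 38.9, 47.7 and 11.8 CPM, against 41.4, 13.997 and 38.1 CPM (-0.30 ± 0.81, edgeR adjusted p = 0.93). Krt8 (1.33 ± 0.44) and Krt18 (1.11 ± 0.43) pointed upward in all 3 libraries with edgeR adjusted p of 0.195 and 0.278. Of 40 junction and keratin genes none was called by edgeR, with 29 of 40 positive and a median log2 difference of 0.44. Over all genes, 1733 had an unadjusted p under 0.05, and DESeq2 and limma voom called 199 and 937 genes.

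**Figure D4:**
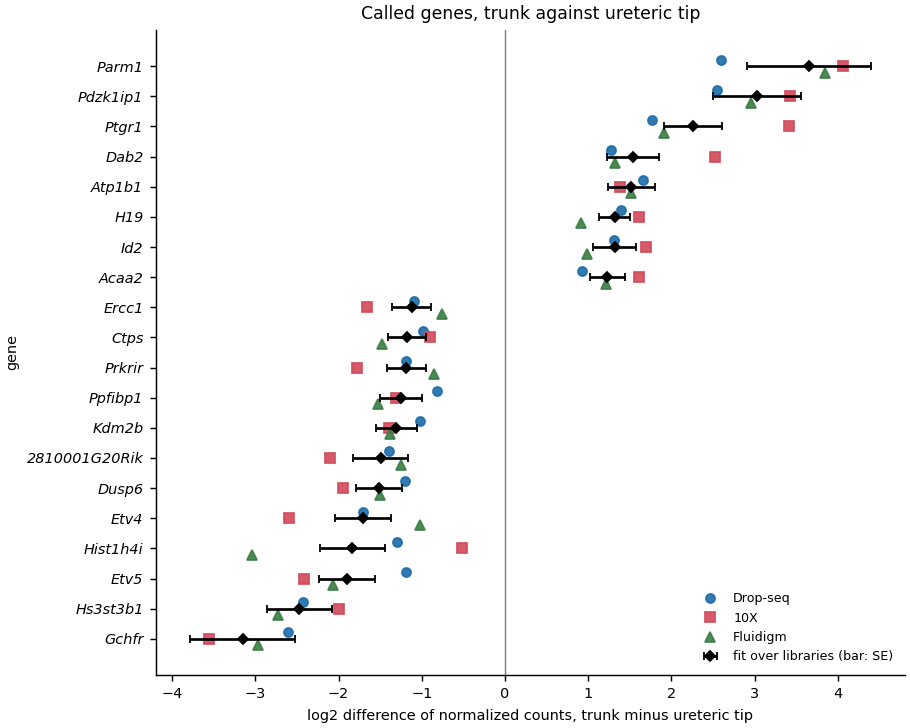
Log2 difference, trunk minus ureteric tip, for 20 called genes named by rule that had counts in every class sum, with 1 symbol per library and the fitted value with its standard error in black. Parm1, Pdzk1ip1, Ptgr1 and H19 lie right of 0 and Etv4, Etv5, Dusp6 and Hs3st3b1 lie left of it in all 3 libraries.

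The trunk cells were not uniform, and they are described here by whether Calb1 was detected. The split was chosen after the values were seen and Calb1 is a gene of the rule, so it is given with no test. Calb1 was not detected in 18, 29 and 3 trunk cells and was detected in 60, 48 and 17. Median totals per cell were 5390 and 6410, 6103 and 6602, and 119678 and 171195 counts in Calb1-undetected and Calb1-detected cells of Drop-seq, 10X and Fluidigm.

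Several urothelial genes, among them Upk3a, Sprr1a and Foxa1, were higher in the Calb1-undetected cells of each library. Others were not: Upk2 stood at 0, 5.96 and 0 CPM in Calb1-undetected cells, against 2.70, 0 and 0 CPM in Calb1-detected cells, and Krt5, Krt14 and Krt20 had no count in either. Upk3a stood at 206, 298 and 288 CPM in Calb1-undetected cells (exact Poisson 95% intervals 124 to 322, 221 to 393 and 239 to 344), against 0, 3.40 and 0 CPM in Calb1-detected cells. Its gene lies on chromosome 15 at 85017141 to 85022547 (mm10). Sprr1a, a cornified envelope precursor made by stratified epithelia, was at 76.0, 286 and 1063 CPM in Calb1-undetected cells, against 2.70, 6.81 and 0 CPM. Foxa1 was at 76.0, 89.4 and 61.4 CPM, against 0, 10.2 and 0.311 CPM. At least 1 uroplakin was detected in 9 of 78, 11 of 77 and 2 of 20 trunk cells, of which 6, 10 and 2 had no Calb1. Upk3a itself was detected in 4 of 18, 10 of 29 and 2 of 3 Calb1-undetected cells, so in the droplet libraries a minority of these cells carried it. The cells with an uroplakin go against the label of collecting duct, and no other name is given to them here.

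Keratins and transport genes followed the same split. Krt19, a keratin of ducts and urothelium, stood at 804, 1174 and 905 CPM in Calb1-undetected cells, against 13.5, 88.5 and 1.56 CPM in Calb1-detected cells. Krt7, another ductal keratin, was at 663, 876 and 1229 CPM, against 135, 174 and 82.4 CPM. Fxyd4 was at 478, 1300 and 1255 CPM, against 24.3, 272 and 26.8 CPM. Aqp2 did not follow it, with 0 counts in Calb1-undetected and 1 count in Calb1-detected cells. Klf5, a factor of stratified and urothelial epithelia, was at 217, 197 and 156 CPM, against 32.4, 85.1 and 30.5 CPM. H19 was at 3421, 2861 and 2573 CPM in Calb1-undetected cells, against 896, 858 and 517 CPM, and Igf2 at 2031, 250 and 2323 CPM, against 753, 71.5 and 370 CPM.

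The reverse pattern held for the summed genes of the tip and for several of them. Gfra1 stood at 10.9, 11.9 and 0 CPM in Calb1-undetected cells, against 208, 81.7 and 31.7 CPM in Calb1-detected cells. Etv4 was at 10.9, 11.9 and 0 CPM, against 86.4, 68.1 and 31.4 CPM. Etv5 showed no clear split in Drop-seq. It had 65.2 CPM in Calb1-undetected cells (exact Poisson 95% interval 23.9 to 142), against 81.0 CPM in Calb1-detected cells (54.6 to 116). The list of tip and RET response genes summed to 728, 238 and 269 CPM in Calb1-undetected cells, against 1813, 1103 and 624 CPM. Cell cycle genes summed to 4236, 3255 and 4289 CPM, against 6973, 4092 and 8216 CPM. Epcam differed little, at 1629, 745 and 600 CPM in Calb1-undetected cells, against 1322, 933 and 405 CPM. Stroma markers summed to 65.2, 298 and 619 CPM, against 235, 143 and 241 CPM, so they moved in opposite directions in Drop-seq and in the other libraries.

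The comparison with the tip was then repeated with Calb1-detected trunk cells only, an alternative chosen after the data were seen. Since nearly every tip cell had Calb1 detected, this choice by a gene of the rule favours trunk cells like the tip, and its values are a description. It gave 14 calls, 10 of them among the 49. The log2 differences were then -1.68 for Etv5, -2.66 for Hs3st3b1 and -1.32 for Kdm2b, which were called, and -1.39 for Etv4 and -1.22 for Dusp6, which were not. Of the higher genes, none of H19, Id2, Ptgr1, Atp1b1, Pdzk1ip1 and Rhcg was called. H19 differed by 0.62, Id2 by 0.84, Ptgr1 by 0.76, Atp1b1 by 0.76 and Pdzk1ip1 by 2.03. Against the distal nephron there were 177 calls, 98 of them among the 122, and Ptgr1, at a log2 difference of 0.47, was not among them. Against other nephron epithelium there were 755 calls, 638 of them among the 882.

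**Figure D5:**
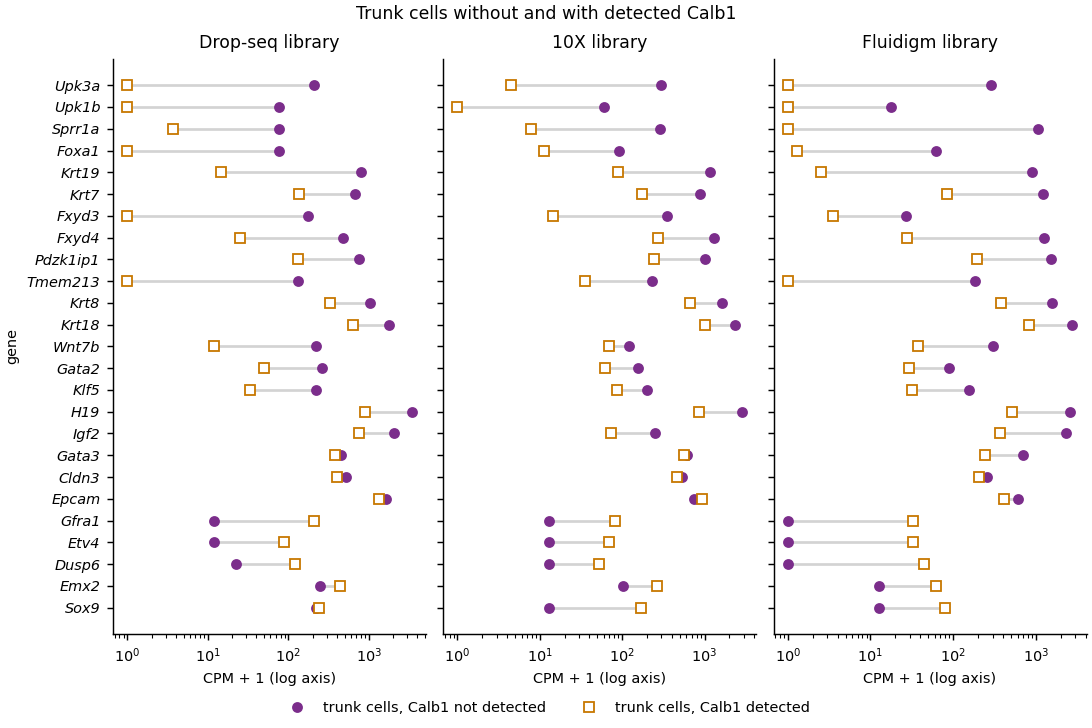
CPM + 1 on a log axis of 25 genes in trunk cells without detected Calb1 (filled circles) and with detected Calb1 (open squares), with 1 panel per library. Uroplakins, Krt19, Krt7, Fxyd4 and H19 lie to the right in Calb1-undetected cells, and Gfra1, Etv4 and Dusp6 lie to the left. The rule genes Epcam and Cldn3 nearly coincide.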

How the data were processed

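The authors deposited whole-number count tables per gene and cell for the 3 libraries, and these raw counts were used. Per the submitters' processing notes, Bowtie2 2.2.7 was used for Drop-seq and Fluidigm, Cell Ranger 1.3.0 for 10X, and mm10 was the genome build. No source used here names the counting tool, the gene models or how cells were picked, and the preparation text of all 3 samples describes Drop-seq. The deposited normalized tables were not used. The Fluidigm table lists no mitochondrial gene.

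Cells with 500 or more genes were assigned to classes from marker lists. The members, lists and alternatives were chosen with earlier results of these data known. Counts over 17864 shared symbols were summed per library and class with 10 or more cells, giving 26 sums. The model had terms for class and library and ran in R 4.3.3 with edgeR 4.0.16 (TMM normalization, its default expression filter, robust quasi-likelihood test), with 15 residual degrees of freedom shared by all classes. P-values are two-sided. Every class marker was left out of the tests. SE is the log2 difference over the square root of F. DESeq2 1.42.0 and limma voom (limma 3.58.1) were alternatives. The fit was tested on simulated data. No doublet caller was run. An alternative removed trunk, tip and distal nephron cells with 3 or more markers of a non-epithelial class, and all cells with over 20% mitochondrial counts. It kept cells with markers of other nephron classes. A class sum cannot separate the share of expressing cells from the level per cell. Fluidigm reads carry no molecular identifier, so its counting intervals are too narrow.

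Named were the rule genes, a fixed set given whatever its values, up to 5 called genes per list and direction, and the 8 largest called genes outside the lists per direction with 20 or more CPM in the higher class, all with 1 direction in every library. Python 3.11.15 was used with numpy 2.4.6, scipy 1.17.1, pandas 2.3.3 and matplotlib 3.10.9.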

Additional observations from a re-analysis of the deposited data

How the results depend on the processing

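Against the tip, 49 calls became 199 with DESeq2, 937 with limma voom, 102 with 4 of 6 ureteric markers and 16 after thinning. They became 160 without cells that carried non-epithelial markers or over 20% mitochondrial counts. At a Fluidigm limit of 5 reads there were 21, and with Calb1-detected trunk cells 14. Against the distal nephron, 122 calls became 256 with DESeq2, 958 with limma voom and 14 with only the 2 classes in the fit. They became 221 after thinning and 409 without ureteric-marked distal cells. Without cells carrying non-epithelial markers or over 20% mitochondrial counts there were 210. At a Fluidigm limit of 50 reads there were 0 (edgeR, 729 at an unadjusted p under 0.05). Too few distal cells were then left in Fluidigm to enter. Against other nephron epithelium, 882 calls became 2271 with limma voom and 350 after thinning. Leaving out 1 library gave 5 to 300, 4 to 144 and 227 to 1364 calls for the tip, the distal nephron and other nephron epithelium. The trunk share became 3.11% in Drop-seq, 2.44% in 10X and 1.23% in Fluidigm with 4 of 6 markers, and 5.19% in Drop-seq after thinning.

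No pairing by animal was possible because each platform gave 1 sample and the labels carry no replicate numbers to pair. The fit as reported does pair class sums by library, as a block, and without this block 0 genes were called against the tip (601 at an unadjusted p under 0.05), 0 against the distal nephron (581) and 152 against other nephron epithelium. No called gene named by the fixed rule reversed its direction, in the comparison that named it, under any alternative run. Genes named beyond that rule were not part of this check. Thinned comparisons rested on the 2 droplet libraries. Depth limits low genes: 3 counts amounted to 6.48, 6.50 and 0.825 CPM in trunk cells. The 20 Fluidigm trunk cells, 3 of them without Calb1, carry the least evidence. RLE scaling gave 58, 132 and 862 calls against tip, distal nephron and other nephron epithelium.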
